A study of Mus musculus with 16 samples.

Results

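The cell proliferation genes described here are 38 mouse genes of DNA replication and mitosis, taken by symbol from the 46320 genes of the count table. They were chosen by name as genes that mark dividing cells, without a threshold on a measured value but with earlier results of these data known. Motoneurons were enriched from lumbar spinal cords of embryonic day 13 mice by panning on an antibody to p75NTR, and were grown in microfluidic chambers whose grooves let axons pass from a central somatodendritic compartment into a separate axonal one. Embryos were Hnrnpr+/+ or Hnrnpr-/-, the latter lacking the first exons of Hnrnpr after CRISPR/Cas9 deletion in the germ line on a C57Bl/6 background. CNTF was present on both sides of every chamber and BDNF on the axonal side only, so compartment and BDNF cannot be told apart. Each of the 4 groups, somatodendritic and axonal RNA of either genotype, held 4 RNA-seq libraries. Panning enriches motoneurons and does not remove every other cell of the embryonic spinal cord. The motoneuron label was checked against 10 markers, read in normalised CPM (counts scaled to the TMM-adjusted library size) in the 4 +/+ somatodendritic libraries. Ret, a GDNF receptor, was the highest at 103, 97.3, 87.3 and 82 CPM. Slc18a3, the vesicular acetylcholine transporter, had 9.14, 7.61, 11.6 and 3.9 CPM, and Slc5a7, Isl1, Lhx3 and Ngfr had means of 6.12 ± 2.09, 5.09 ± 1.98, 4.46 ± 0.649 and 5.44 ± 0.504 CPM (SD, n = 4). Chat, the enzyme that makes acetylcholine, stood at 0.724, 1.31, 0.911 and 0.657 CPM and Prph at a mean of 1.31 ± 0.221 CPM, while Mnx1 was at 0 in every somatodendritic library and Isl2 did not exceed 5 counts in any. Hnrnpr itself had 13 to 38 counts in the Hnrnpr-/- libraries and 3922 to 15608 in +/+.

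A cell that divides copies its DNA in S phase and separates the copies in mitosis, and the genes for these steps are switched on in turn. E2F factors activate the replication genes toward S phase. The MuvB complex with B-MYB and FOXM1 activates the mitotic genes in G2, through a promoter element called the cell cycle genes homology region (CHR), often near CCAAT boxes bound by NF-Y. Neurons have left the cell cycle, whereas radial glia, other glial precursors, fibroblasts and endothelial cells of the embryonic cord divide, so these transcripts are widely used as a sign of dividing cells.

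The members fall into a replication part of 14 genes and a mitosis part of 24. RefSeq promoters of 250 bases before to 50 after a start (build GRCm38.p6) were at hand for 33 members, 12 of replication and 21 of mitosis. An E2F-like core (TTCCCGC, or with other middle letters TTCGCGC, or likewise TTGCCGC, or likewise TTGGCGC, on either strand) was found in 7 of the 12 replication promoters, which is 58.3%, in 4 of the 21 mitosis promoters, 19%, and in 10.9% of the promoters of all 27025 genes. With a T required before the core, 5 of the 12, 1 of the 21 and 2.6% of all held it. A CHR (TTTGAA or TTCGAA, either strand) was found in 17 of the 21 mitosis promoters, 81.0%, in 3 of the 12 replication promoters, 25%, and in 21.7% of all. CCAAT was in 18 of the 21, 85.7%, and 9 of the 12, 75%, against 41.1% of all. The match of letters is a description and not a bound site, and the E2F-like core can overlap CCAAT at its edge. Windows of 30 bases are printed 5′ to 3′ on the gene's strand, with the motif in capitals, placed in GRCm39 by an exact match of the promoter. The first 4 are the members with 3 or more matches to an E2F-like core. Overlapping matches were each counted, so they need not be separate sites. All 4 members are subunits of the MCM helicase, which unwinds DNA at the replication fork.
Mcm3, chr1:20890499-20890528, minus strand: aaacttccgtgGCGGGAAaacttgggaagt
Mcm5, chr8:75835977-75836006, plus strand: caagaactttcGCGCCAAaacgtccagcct
Mcm6, chr1:128287400-128287429, minus strand: gccggaggcgcGCGCGAAgtggcagcgcgg
Mcm7, chr5:138170110-138170139, minus strand: ggtgacgacgtTTCGCGCcaatttcggttg
Counted from the RefSeq start as base 1, the motif began at 20 in Mcm3, -149 in Mcm5, 25 in Mcm6 and 18 in Mcm7, the last from one of its 2 listed starts. The next 6 are the members with the largest axonal to somatodendritic fold in +/+ among those that hold a CHR, and were chosen after the values were seen.
Ube2c, chr2:164611808-164611837, plus strand: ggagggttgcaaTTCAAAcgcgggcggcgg
Cdk1, chr10:69188740-69188769, minus strand: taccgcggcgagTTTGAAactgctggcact
Hmgb2, chr8:57964835-57964864, plus strand: ggactctccgggTTTGAAtaatcctccaca
Cenpa, chr5:30824234-30824263, plus strand: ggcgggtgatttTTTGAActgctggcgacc
Cdc20, chr4:118294541-118294570, minus strand: agacagttgggtTTTGAAggagccaatgaa
Plk1, chr7:121758676-121758705, plus strand: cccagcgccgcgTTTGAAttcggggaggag
These motifs began at -29 in Ube2c, -15 in Cdk1, -30 in Hmgb2, 17 in Cenpa, -18 in Cdc20 and 31 in Plk1. In 5 of these 6 windows the letters read TTTGAA on the gene's own strand, and in Ube2c they lie on the opposite strand. Ccne2, Ccna2, Mcm4, Tpx2 and Aurkb had no entry.

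**Figure D1:**
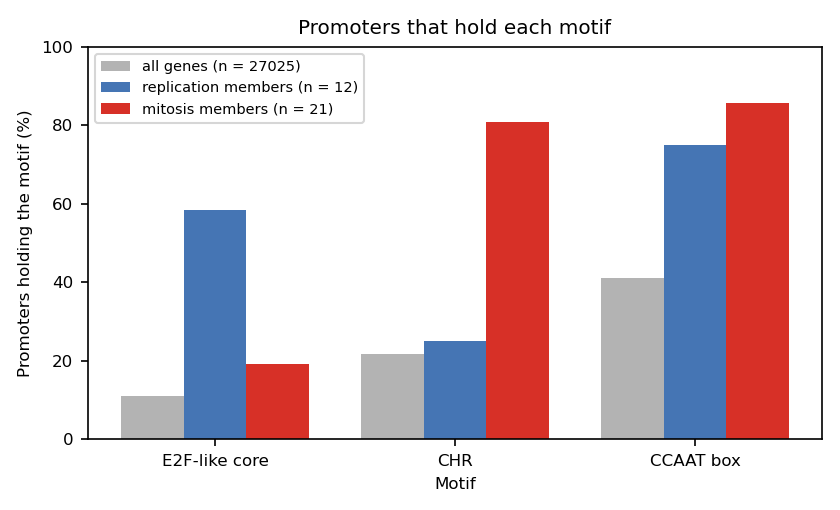
Percentage of RefSeq promoters (y axis) that hold an E2F-like core, a CHR or a CCAAT box (x axis), for all genes (grey), the 12 replication members (blue) and the 21 mitosis members (red). The E2F-like core stands out in the replication members (58.3%) and the CHR in the mitosis members (81.0%).

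The libraries held 22024923 to 34864151 counts in all. All 38 members were detected in every library, with 82 to 18651 counts each, and all passed the filter on low counts. In axonal RNA of Hnrnpr+/+ cultures 37 of the 38 were higher than in somatodendritic RNA and none was lower, by edgeR's quasi-likelihood test with Benjamini-Hochberg adjustment over 19964 genes. Over all genes tested, 30.1% were called higher and 27.4% lower. The members' median log2 difference was 2.22 (4.65-fold, range 0.36 to 3.59), beside 0.07 for all genes tested. For 34 members every +/+ axonal library lay above every +/+ somatodendritic one, which held for 24.8% of all genes. In Hnrnpr-/- cultures 36 members were higher and none lower, where 27.5% of all genes were called higher and 26.8% lower, with a median log2 difference of 2.35 (5.11-fold, range 0.49 to 3.54). There the groups did not overlap for only 9 members, against 24.1% of all genes, and the first Hnrnpr-/- axonal library fell within the somatodendritic range for 24 members. In bulk RNA, fewer cells of a type and less RNA per cell cannot be told apart.

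**Figure D2:**
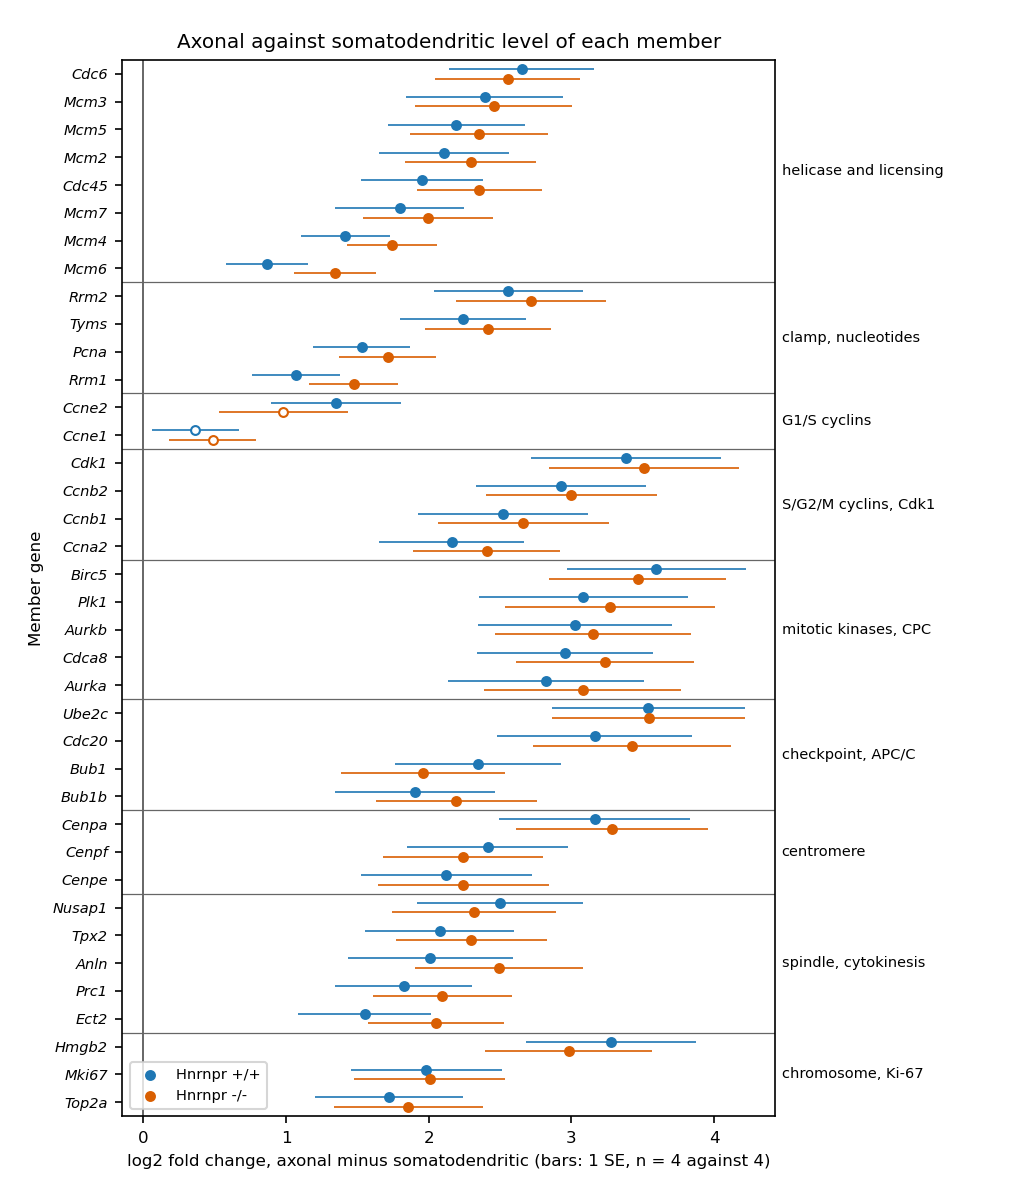
Log2 fold change between axonal and somatodendritic RNA (x axis, positive is higher in axonal RNA) for the 38 members grouped by role (y axis), in Hnrnpr+/+ (blue) and Hnrnpr-/- cultures (orange). Points are edgeR estimates from 4 against 4 libraries, bars are 1 SE, and open points missed an adjusted p of 0.05 (Ccne1 in both genotypes, Ccne2 in Hnrnpr-/-).

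The 14 replication genes had a median log2 difference of 1.87 in +/+ (3.66-fold) and 2.14 in Hnrnpr-/- (4.42-fold), and the 24 mitosis genes 2.51 (5.69-fold) and 2.58 (5.97-fold), a contrast between lists that was not tested. All 24 mitosis genes were called higher in either genotype, and 13 and 12 of the 14 replication genes. Levels are normalised CPM, in the order of replicates 1 to 4.

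Licensing and helicase genes load and drive the replicative helicase. All 8 rose in the axonal RNA of both genotypes, with a median log2 difference of 2.03 in +/+ and 2.32 in Hnrnpr-/-. Mcm6, a subunit of the MCM ring, had the highest level per kb of transcript among these 8 genes in +/+ somatodendritic RNA (19.3 ± 2.19 CPM per kb, SD, n = 4). Its somatodendritic level was 86.6, 75.7, 81.7 and 98.5 CPM in +/+ and 81.9, 74.7, 89.9 and 102 in Hnrnpr-/-. In axonal RNA Mcm6 stood at 176, 149, 188 and 111 CPM in +/+ and 91.2, 273, 316 and 204 in Hnrnpr-/-. Its +/+ groups did not overlap, while the first Hnrnpr-/- axonal library lay inside the somatodendritic range. The log2 difference was 0.87 (SE 0.29, 1.82-fold, edgeR adjusted p = 0.0175) in +/+ and 1.34 (SE 0.29, 2.54-fold, edgeR adjusted p = 0.0015) in Hnrnpr-/-. Cdc6, which loads the helicase onto origins, was the lowest of the group at 0.935 ± 0.218 CPM per kb. It read 4.53, 3.69, 6.25 and 4.32 CPM in +/+ and 5.27, 5.85, 6.12 and 7.64 CPM in Hnrnpr-/- somatodendritic libraries. Axonal Cdc6 was at 30.8, 37.6, 37.2 and 12.4 CPM in +/+ and at 6.28, 44.1, 60.9 and 34.7 CPM in Hnrnpr-/-. With log2 differences of 2.65 (SE 0.51) and 2.55 (SE 0.51) Cdc6 had the steepest rise of this group in either genotype, and Mcm6 the smallest. In +/+ the log2 differences of Mcm2, Mcm3, Mcm4, Mcm5, Mcm7 and Cdc45, the helicase's activating partner, ran from 1.42 (Mcm4) to 2.39 (Mcm3). Cdc45 overlaps Ufd1 on the other strand over 1886 bases, listed at a mean of 85.3 CPM against 25.9 for Cdc45.

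Clamp and nucleotide genes supply the polymerase. Pcna encodes the sliding clamp, Rrm1 and Rrm2 the ribonucleotide reductase subunits, and Tyms thymidylate synthase. All 4 rose, by a median of 1.89 on the log2 scale in +/+ and 2.06 in Hnrnpr-/-, and none of the 4 overlapped between compartments in either genotype. Pcna had the highest level per kb of all 38 members in +/+ somatodendritic RNA (37.8 ± 6.28 CPM per kb). It measured 47.7, 38.7, 46.3 and 57.9 CPM there and 40.0, 51.7, 45.2 and 48.5 CPM in Hnrnpr-/- somatodendritic RNA. The axonal values were 128, 179.9, 179 and 63.4 CPM in +/+ and 64.9, 166, 223 and 152 CPM in Hnrnpr-/-. Axonal Pcna was lowest in +/+ replicate 4 and Hnrnpr-/- replicate 1, and still above every somatodendritic library. The difference was 1.53 (SE 0.34, 2.89-fold, edgeR adjusted p = 0.00169) in +/+ and 1.71 (SE 0.34, 3.27-fold, edgeR adjusted p = 0.000953) in Hnrnpr-/-. A processed copy, Pcna-ps2, was listed at a mean of 15.1 CPM, so reads shared between the copies were split by the counting. Tyms, the lowest of these 4 per kb (1.6 ± 0.0923 CPM per kb), had 12, 10.9, 12.5 and 12.2 CPM and 10.8, 15.3, 13.7 and 11.5 CPM in +/+ and Hnrnpr-/- somatodendritic libraries. In axonal ones it had 45.6, 55.7, 95.1 and 28.5 CPM and 18.2, 68.1, 120.5 and 66.6 CPM. Rrm1, the large reductase subunit, was nearly flat across somatodendritic RNA apart from a low second +/+ library, at 93.2, 72.6, 93.7 and 91.6 CPM in +/+ and 90.8, 89, 98.5 and 92.4 CPM in Hnrnpr-/-. Its axonal level was 237, 165, 216 and 120.1 CPM in +/+ and 98.7, 327, 373 and 229.7 CPM in Hnrnpr-/-, a log2 difference of 1.07 (SE 0.31) and 1.47 (SE 0.31). Rrm2, the small subunit, which is made in S phase and destroyed afterwards, differed by 2.56 (SE 0.52) and 2.71 (SE 0.53).

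Cyclins E1 and E2 are partners of Cdk2 at the entry to S phase, and were the members not called higher in every comparison of compartments. Ccne1 had 24.4, 20.3, 21.7 and 23.5 CPM in +/+ and 22.3, 24.2, 22 and 26.1 CPM in Hnrnpr-/- somatodendritic RNA. Axonal Ccne1 was at 26.4, 31.2, 38.9 and 19.3 CPM and 12.6, 34.9, 49.5 and 35.4 CPM, so the compartments overlapped in both genotypes. Its log2 difference was 0.36 (SE 0.30, 1.29-fold, edgeR adjusted p = 0.319) in +/+ and 0.49 (SE 0.30, 1.4-fold, edgeR adjusted p = 0.19) in Hnrnpr-/-. Without the first Hnrnpr-/- axonal library the latter became 0.75 (edgeR adjusted p = 0.00697). Ccne2, the member with the lowest mean over all libraries, read 3.5, 5.36, 6.21 and 5.82 CPM and 4.45, 6.02, 6.28 and 5.96 CPM in somatodendritic RNA of +/+ and Hnrnpr-/-. Its axonal values were 9.47, 27.3, 12.4 and 4.04 CPM and 5.17, 11.4, 15.9 and 12.3 CPM. The second +/+ axonal library was far above the other +/+ ones. Ccne2 was called higher in +/+ (1.35 (SE 0.46, 2.55-fold, edgeR adjusted p = 0.0199)) and missed the threshold in Hnrnpr-/- (0.98 (SE 0.45, 1.97-fold, edgeR adjusted p = 0.0791)). The +/+ value was 0.72 (edgeR adjusted p = 0.119) without that library, and missed the threshold also without the first +/+ somatodendritic one (1.24, adjusted p = 0.0524). The Hnrnpr-/- value passed the threshold in 5 alternative fits. It was 1.21 (edgeR adjusted p = 0.0305) without Hnrnpr-/- axonal replicate 1, and the adjusted p was 0.0314 without +/+ axonal replicate 2, 0.0274 without +/+ axonal replicate 4, 0.0342 over the 8 Hnrnpr-/- libraries alone and 0.0271 in limma voom with sample weights. Ccne2 overlaps Ints8 on the other strand, listed at a mean of 60.0 CPM against 8.85 for Ccne2, and the library kit did not mark strand, so reads from the overlap cannot be assigned.

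Among the S, G2 and M cyclins, all 4 genes rose with a median log2 difference of 2.72 in +/+ and 2.83 in Hnrnpr-/-. Ccnb1, cyclin B1, is the Cdk1 partner that starts mitosis. Its somatodendritic level was 33.7, 23.1, 42 and 32.3 CPM in +/+ and 28.3, 32.7, 45.3 and 31 CPM in Hnrnpr-/-. Axonal Ccnb1 reached 235, 186, 269 and 63.3 CPM in +/+ and 22.9, 266, 368 and 214 CPM in Hnrnpr-/-. In +/+ the compartments did not overlap, and the first Hnrnpr-/- axonal library was lower than every somatodendritic one. The difference was 2.52 (SE 0.59, 5.74-fold, edgeR adjusted p = 0.00243) in +/+ and 2.66 (SE 0.60, 6.34-fold, edgeR adjusted p = 0.00199) in Hnrnpr-/-. A pseudogene, Ccnb1-ps, was listed at a mean of 11.5 CPM. Cdk1 is the kinase itself, with the CHR printed above. It had 16.3, 10.0, 21.9 and 14.8 CPM in +/+ and 10.5, 16.9, 21.6 and 17.8 CPM in Hnrnpr-/- somatodendritic libraries. In axons Cdk1 gave 155, 152, 305 and 46.1 CPM in +/+ and 21.6, 215, 345 and 179 CPM in Hnrnpr-/-. Compartments did not overlap in +/+ for Cdk1, which at 3.38 (SE 0.66, 10.4-fold, edgeR adjusted p = 0.000734) was the third largest among the members, and its Hnrnpr-/- value was 3.51 (SE 0.67). Cyclins B2 (Ccnb2) and A2 (Ccna2) differed by 2.92 and 2.16 in +/+ on the log2 scale. Ccna2 overlaps Exosc9 on the other strand, listed at a mean of 65.6 CPM against 97.7 for Ccna2.

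The mitotic kinases and the chromosomal passenger complex, which corrects the attachment of chromosomes to the spindle, had the highest median of any role, 3.02 in +/+ (8.13-fold) and 3.24 in Hnrnpr-/- (9.43-fold). Birc5, survivin (GRCm39 chr11:117740063-117746569, plus strand), the passenger subunit that finds the centromere, was the member with the largest log2 difference in +/+. It stood at 5.55, 3.78, 4.89 and 4.98 CPM in +/+ and 3.75, 6.15, 9.3 and 6.86 CPM in Hnrnpr-/- somatodendritic RNA. Axonal Birc5 was 62.8, 45.4, 105 and 18.7 CPM in +/+ and 10.0, 87.5, 119 and 71.1 CPM in Hnrnpr-/-. No axonal library fell to the somatodendritic level, although the first Hnrnpr-/- one came close. Birc5 differed by 3.59 (SE 0.63, 12.1-fold, edgeR adjusted p = 0.000328) in +/+ and 3.47 (SE 0.62, 11-fold, edgeR adjusted p = 0.000468) in Hnrnpr-/-. Cdca8, borealin, a second passenger subunit, had the highest level per kb of this role (8.82 ± 1.4 CPM per kb). Its values were 16.2, 11.1, 14.7 and 15.5 CPM and 11, 13.9, 18.7 and 13.9 CPM in +/+ and Hnrnpr-/- somatodendritic RNA. The axonal ones were 122, 98.5, 192 and 32.7 CPM and 15.2, 162, 233 and 132 CPM. The difference of 2.95 (SE 0.62) in +/+ lay next to those of Plk1 (3.08), Aurkb (3.02), the passenger complex kinase, and Aurka (2.82), the spindle pole kinase.

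Genes of the spindle checkpoint and the anaphase-promoting complex, the ubiquitin ligase that ends mitosis, all rose, with a median of 2.75 in +/+ and 2.81 in Hnrnpr-/-. Ube2c, the complex's ubiquitin-conjugating enzyme (GRCm39 chr2:164611849-164614822, plus strand), went from 11.3 ± 3.91 to 131 ± 102 CPM per kb in +/+, the highest axonal mean per kb of any member. Somatodendritic Ube2c was at 10.1, 7.2, 15.7 and 9.06 CPM in +/+ and 7.82, 10.7, 15.3 and 13.5 CPM in Hnrnpr-/-. Its axonal values were 124, 77.3, 254 and 34.1 CPM in +/+ and 16.9, 159.9, 218 and 156 CPM in Hnrnpr-/-. Every axonal library was above every somatodendritic one, and the third +/+ axonal library held the most and the fourth the least of the +/+ ones. Ube2c differed by 3.54 (SE 0.68, 11.6-fold, edgeR adjusted p = 0.000608) in +/+ and 3.54 (SE 0.68, 11.7-fold, edgeR adjusted p = 0.000699) in Hnrnpr-/-. Bub1, a checkpoint kinase, had the lowest level of the role (2.36 ± 0.58 CPM per kb), with 12.4, 6.93, 12 and 9.76 CPM in +/+ and 11.1, 9.96, 15.3 and 12.1 CPM in Hnrnpr-/- somatodendritic RNA. In axonal RNA Bub1 was 49, 100.1, 44.7 and 15.6 CPM in +/+, where the second library was highest, and 7.38, 68.9, 72.1 and 40.0 CPM in Hnrnpr-/-, a log2 difference of 2.35 (SE 0.58) and 1.96 (SE 0.57). Cdc20, the activator of the complex, differed by 3.16 and Bub1b, BubR1, by 1.90 in +/+.

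Centromere and kinetochore genes had a median of 2.41 in +/+ and 2.24 in Hnrnpr-/-, with all 3 called in both. Cenpa, the histone H3 variant that marks centromeres, stood at 7.36, 4.19, 9.19 and 5.26 CPM in +/+ and 4.61, 6.93, 11.1 and 6.18 CPM in Hnrnpr-/- somatodendritic RNA. Its axonal level was 70.7, 38.5, 107 and 17.3 CPM and 8.05, 79.1, 118 and 76.3 CPM. The +/+ groups were apart and the first Hnrnpr-/- axonal library was inside the somatodendritic range, with a log2 difference of 3.16 (SE 0.67, 8.97-fold, edgeR adjusted p = 0.00121) in +/+. Cenpf, a large kinetochore protein that builds up in G2, was low per kb (1.15 ± 0.399 CPM per kb) and read 16, 7.56, 17.5 and 11.4 CPM in +/+ and 12.8, 11.6, 18.9 and 13.6 CPM in Hnrnpr-/- somatodendritic RNA. Axonal Cenpf was 65.9, 83.9, 98.7 and 31 CPM in +/+ and 9.24, 93.8, 117 and 49.2 CPM in Hnrnpr-/-, and differed by 2.41 (SE 0.57) and 2.24 (SE 0.56). The kinetochore kinesin Cenpe differed by 2.12 in +/+, with overlapping groups.

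Spindle, midzone and cytokinesis genes rose by a median of 2.01 in +/+ and 2.30 in Hnrnpr-/-, all 5 called in both. Prc1, which bundles the microtubules of the midzone, had 40.8, 28.4, 38.9 and 40.3 CPM in +/+ and 28.6, 37.1, 42.7 and 42 CPM in Hnrnpr-/- somatodendritic libraries. In axonal RNA it had 171, 114, 172 and 68.2 CPM and 25.7, 214, 254 and 149 CPM. Here the first Hnrnpr-/- axonal library was below every somatodendritic one, and the log2 difference was 1.82 (SE 0.48, 3.54-fold, edgeR adjusted p = 0.00497) in +/+ and 2.09 (SE 0.49) in Hnrnpr-/-. Anln, anillin, which scaffolds the contractile ring, was the lowest of the group (1.04 ± 0.341 CPM per kb). Its somatodendritic values were 8.45, 5.99, 11.8 and 6.38 CPM and 8.89, 9.01, 11.1 and 7.68 CPM in +/+ and Hnrnpr-/-. Axonal Anln was 26, 24.4, 65.2 and 16.4 CPM in +/+ and 7.24, 61, 99.8 and 38.4 CPM in Hnrnpr-/-, where the third library was by far the highest. It differed by 2.01 (SE 0.58) and 2.49 (SE 0.59). Nusap1, Tpx2 and Ect2, which stabilise spindle microtubules, nucleate them and activate RhoA for the furrow, differed by 2.5, 2.08 and 1.55 in +/+. Prc1 and Anln overlap Rccd1 and 9530077C05Rik on the other strand.

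Of the chromosome genes, Mki67 encodes Ki-67, the surfactant of mitotic chromosomes used to stain cycling cells (GRCm39 chr7:135291513-135318286, minus strand). It measured 25.9, 14.5, 24.6 and 20.9 CPM in +/+ and 23.6, 17.6, 25.7 and 22.1 CPM in Hnrnpr-/- somatodendritic RNA. Axonal Mki67 was 84.8, 116, 109 and 29.7 CPM in +/+ and 13.7, 124, 136 and 84.3 CPM in Hnrnpr-/-. The fourth +/+ library was only just above the somatodendritic range and the first Hnrnpr-/- library below it. Mki67 differed by 1.98 (SE 0.53, 3.95-fold, edgeR adjusted p = 0.00528) in +/+ and 2.01 (SE 0.53, 4.02-fold, edgeR adjusted p = 0.00543) in Hnrnpr-/-. Top2a, the topoisomerase that untangles sister chromosomes, had 41.4, 26.4, 41.7 and 36.5 CPM and 38.5, 34.9, 53 and 38.1 CPM in somatodendritic RNA of +/+ and Hnrnpr-/-. It reached 169, 120.2, 149 and 43.8 CPM in +/+ axons and 22.9, 235, 205 and 133 CPM in Hnrnpr-/- axons, with the same low libraries. The log2 difference of Top2a was 1.72 (SE 0.52, 3.3-fold, edgeR adjusted p = 0.0111) in +/+ and 1.86 (SE 0.52) in Hnrnpr-/-. Hmgb2, a chromatin protein of dividing progenitors, differed by 3.28 (SE 0.59) and 2.98 (SE 0.59). It overlaps a pseudogene, Gm6012, on the other strand, listed at a mean of 11.4 CPM against 87.9 for Hmgb2.

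**Figure D3:**
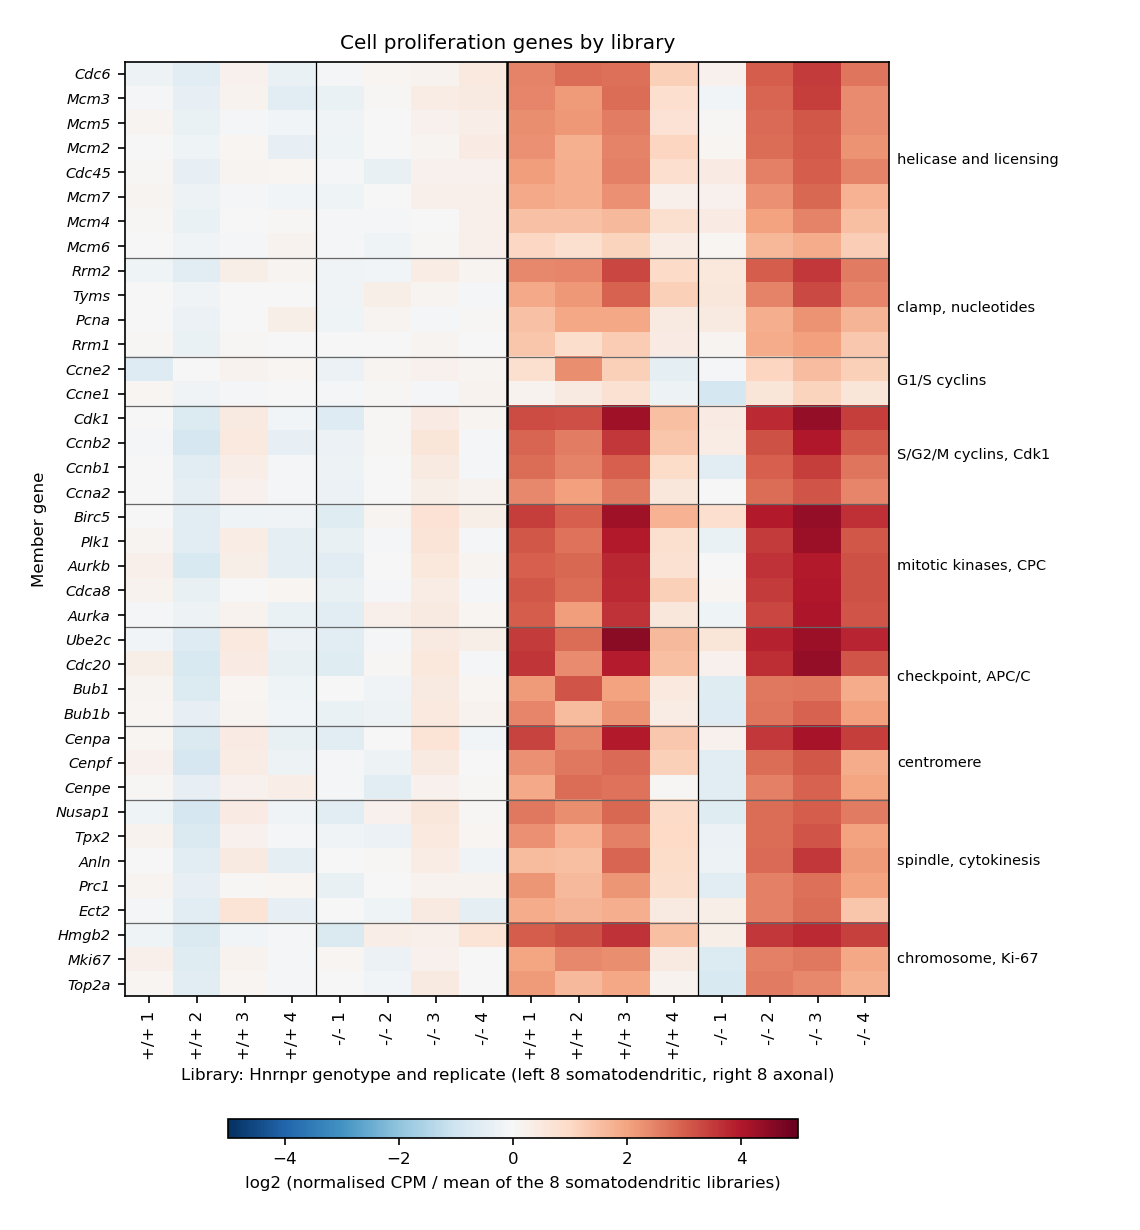
Level of each of the 38 members (rows, grouped by role) in the 16 libraries (columns) as the log2 ratio of its normalised CPM to its mean over the 8 somatodendritic libraries, on the colour scale below. Axonal libraries are red for nearly all members except +/+ replicate 4, which is pale, and Hnrnpr-/- replicate 1, which is close to the somatodendritic libraries.

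The members moved together from library to library. Their summed level was 979, 717, 1037 and 915 CPM in +/+ and 833, 920.3, 1146 and 1054 CPM in Hnrnpr-/- somatodendritic RNA. In axonal RNA it was 4451, 3843, 6003 and 1594 CPM in +/+ and 979, 6043, 8083 and 4517 CPM in Hnrnpr-/-. Hnrnpr-/- replicate 3 was the highest axonal library for 34 of the 38 members and Hnrnpr-/- replicate 1 the lowest for 36, with +/+ replicate 4 the lowest for the other 2. In Hnrnpr-/- axonal replicate 1 only 8 members were above all somatodendritic libraries, and in +/+ axonal replicate 4 31 were, where the other 6 axonal libraries had all 38. The median coefficient of variation of a member was 21.6% in +/+ and 20.7% in Hnrnpr-/- somatodendritic RNA, and 47.7% and 63.0% in axonal RNA. For all genes at 5 CPM or more it was 12.2%, 14.7%, 29.2% and 26% in the same order. Mitosis genes made up 38.6% to 47.9% of the members' sum in somatodendritic libraries and 55.5% to 60.3% in axonal ones, except 48.6% in +/+ axonal replicate 4 and 36.9% in Hnrnpr-/- axonal replicate 1.

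Within each culture, the median axonal to somatodendritic ratio of the 38 members was 4.62, 5.79, 5.6 and 1.92 in +/+ replicates 1 to 4 and 1.19, 7.19, 7.31 and 4.32 in Hnrnpr-/- replicates 1 to 4. Of the 38 members, 26 were higher in axonal RNA in Hnrnpr-/- culture 1, 35 in +/+ culture 4 and all 38 in each of the other 6. As a gauge for each library, the genes outside the cell cycle lists that were called higher in axons of the other genotype were taken. Over these 5339 genes the median ratio was 2.22, 2.54, 3.1 and 2.18 in the +/+ cultures, and over 5867 genes it was 2.42, 2.08, 2.73 and 2.43 in the Hnrnpr-/- cultures. For these genes Hnrnpr-/- culture 1 and +/+ culture 4 lay within the range of the other 6 cultures, and for the members both lay below all 6.

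**Figure D4:**
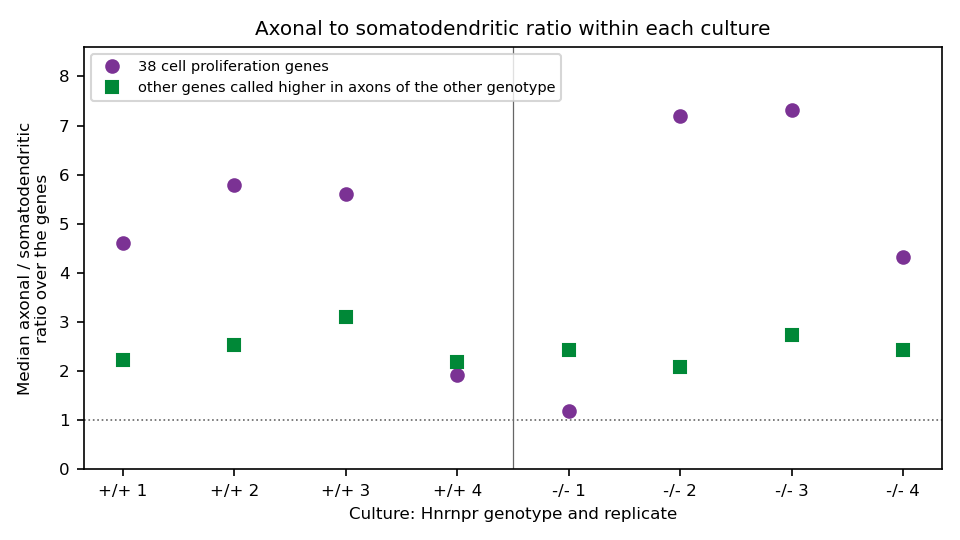
Median ratio of axonal to somatodendritic level (y axis, 1 is equal) in each of the 8 cultures (x axis), for the 38 members (purple circles) and for other genes called higher in axons of the other genotype (green squares). The squares stay between 2.08 and 3.10, while the circles run from 1.19 in Hnrnpr-/- culture 1 to 7.31 in Hnrnpr-/- culture 3.

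Markers of cells that could be present were read beside the members, and their part in the result was not tested. Their counts of calls stand beside 30.1% of all genes called higher in +/+ axons and 27.5% in Hnrnpr-/- axons. Astrocyte or radial glia markers summed to 1075 to 2197 CPM in somatodendritic and 2215 to 5294 CPM in axonal libraries, with all 11 detected in every library and 7 of 11 called higher in +/+ axons and 5 in Hnrnpr-/- axons. The glutamate transporter Slc1a3 had 330.5, 289, 358 and 240.4 CPM in +/+ somatodendritic and 658, 697, 341 and 403 CPM in +/+ axonal RNA. The lowest astrocyte or radial glia sums of the axonal libraries, 2215 and 2578 CPM, were those of Hnrnpr-/- replicate 1 and +/+ replicate 4. Fabp7, which held the largest part of that sum, Sox2 and Hes5 had their lowest axonal values in the same libraries. But Slc1a2, Aqp4 and Aldh1l1 had theirs in replicate 3 of either genotype. There Slc1a2 and Aldh1l1 were at 28.1 and 152 CPM in +/+ and 16.3 and 159.7 CPM in Hnrnpr-/-. Nes and Hes1 were not low in +/+ axonal replicate 4, at 15677 and 1235 counts beside 6520 and 594 in +/+ replicate 1. Gfap was not lowest there either, at 4718 counts beside 2013 in +/+ replicate 3. Nes was lowest in Hnrnpr-/- replicate 1, and Hes1 in Hnrnpr-/- replicate 2, at 374 counts. Fibroblast or meningeal markers summed to 87.6 to 1285 CPM in somatodendritic and 165 to 2084 CPM in axonal RNA, highest in +/+ axonal replicate 4, with Col1a1 at 363 and Col3a1 at 651 CPM there, and 4 of 10 called higher in +/+ and 3 in Hnrnpr-/-. Oligodendroglia or Schwann cell markers summed to 228 to 1083 CPM and 333 to 1871 CPM, with 2 of 9 called higher in either genotype. Olig1, Olig2, Pdgfra, Sox10 and Mbp had their lowest axonal values in Hnrnpr-/- replicate 1 and +/+ replicate 4, with Olig2 at 19.6 and 24.3 CPM there. Cspg4 went otherwise, at 78.8 CPM in the former and its axonal maximum of 168 CPM in the latter, and Foxd3 and Erbb3 were at 0 in 1 or more axonal libraries. Microglia markers summed to 10.0 to 120.2 CPM and 14.1 to 353 CPM, with 1 of 8 called higher in either genotype. C1qb, at 147 CPM in Hnrnpr-/- axonal replicate 4, was the highest of them, and Aif1 was at or under 5.21 CPM everywhere. Tmem119 made up most of the sum in Hnrnpr-/- axonal replicates 1 and 3 and +/+ axonal replicate 4, at 652, 654 and 1380 counts. Csf1r had 0 and 10 counts in those Hnrnpr-/- replicates, and C1qb 11 and 0. Endothelial markers summed to 5.67 to 31.4 CPM and 48.3 to 255 CPM, with 2 of 5 higher and 2 lower in either genotype, where the VEGF receptor genes Flt1 and Kdr made up nearly the whole axonal sum, at up to 197 and 68.4 CPM, and Pecam1, Cdh5 and Cldn5 were at or under 1.06 CPM in axonal RNA. Motoneuron markers went the other way, from 99.9 to 167 CPM in somatodendritic RNA to 4.98 to 78.7 CPM in axonal RNA. In either genotype 5 of 8 tested were lower, beside 27.4% and 26.8% of all genes in +/+ and Hnrnpr-/-. Their sum was highest among axonal libraries in Hnrnpr-/- replicate 1 and lowest in Hnrnpr-/- replicate 3. Most of it was Ret in the former, with 2290 counts there and 53 in the latter. Lhx3 was also highest in the former, but Slc5a7 and Isl1 were highest in +/+ axonal replicate 2, at 361 and 187 counts. Chat and Slc18a3 were highest in Hnrnpr-/- replicate 2, Ngfr in Hnrnpr-/- replicate 4 and Prph in +/+ replicate 3.

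The rest of the cell cycle was read from a list of 133 further genes. Of these, 105 were higher and 6 lower in +/+ axons (30.1% and 27.4% of all genes), with a median log2 difference of 1.98, and 109 were higher and 5 lower in Hnrnpr-/- axons (27.5% and 26.8%), with a median of 1.96. The 6 lower in +/+ were 3 without +/+ axonal replicate 4 and 3 with library totals in place of TMM factors. All 6 G1 cyclins and kinases rose in both genotypes. Ccnd2, cyclin D2, had 63.1, 45.7, 96 and 54.5 CPM in +/+ somatodendritic RNA and 549, 714, 1079 and 786 CPM in +/+ axonal RNA, a log2 difference of 3.59 (SE 0.30, 12.1-fold, edgeR adjusted p = 4.92e-06). In Hnrnpr-/- it went from 57, 63.8, 81 and 71 CPM to 504, 504, 947 and 575 CPM. Unlike the members, Ccnd2 was as high in the first Hnrnpr-/- axonal library as in the second. Summed over the 133 genes, axonal levels were lowest in Hnrnpr-/- replicate 1 and +/+ replicate 4, at 5655 and 6395 CPM. The other axonal libraries had 8909 to 13614 CPM. Of the transcription factors of the cell cycle, activators and repressors together, 9 of 12 were called higher in either genotype, E2f1 by 1.98, Mybl2, which encodes B-MYB, by 2.73 and Foxm1 by 1.36 in +/+. Polymerases and fork proteins had 20 of 24 called higher in +/+, origin licensing and firing 12 of 17 with 3 lower, condensin and cohesin 10 of 16, mitotic kinesins 10 of 12, kinetochore and checkpoint genes 14 of 16 with 1 lower, and genes of the spindle, cytokinesis and mitotic entry 18 of 20 with 1 lower. Among the genes that fell, Ckap5, a microtubule polymerase also used in neurons, fell by 1.11 in +/+ and Zwint, a kinetochore protein that is abundant in neurons, fell by 0.97 in Hnrnpr-/-.

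Inhibitors of the cell cycle did not move as 1 group, with 6 of 10 higher and 1 lower in either genotype. Cdkn2b, which encodes p15, a block on Cdk4 and Cdk6, had 0.966, 0.36, 2.73 and 0.939 CPM in +/+ somatodendritic and 25.1, 5.44, 74.2 and 51.6 CPM in +/+ axonal RNA, with a log2 difference of 4.96 (SE 0.80, 31.1-fold, edgeR adjusted p = 0.000200). In Hnrnpr-/- it had 0.618, 0.953, 2.14 and 1.16 CPM and 23.8, 10.0, 34.6 and 44.9 CPM. The first Hnrnpr-/- axonal library was not low for Cdkn2b. Cdkn2a, at the same locus, had 0, 1, 2 and 0 counts in +/+ somatodendritic and 12, 17, 48 and 34 counts in +/+ axonal libraries, and 0 counts in every Hnrnpr-/- somatodendritic library against 0, 5, 6 and 6 in the axonal ones. It was called higher in both genotypes, from counts too low for a fold to be read. Cdkn1a, p21, stood at 55.1, 56.8, 73.6 and 62.5 CPM in +/+ somatodendritic and 269.7, 146, 594 and 627 CPM in +/+ axonal RNA, a log2 difference of 2.72 (SE 0.43). Its Hnrnpr-/- axonal values were 517, 147, 354 and 494 CPM. Axonal Cdkn1a was highest in +/+ replicate 4, and lowest in replicate 2 of either genotype. Cdkn2c, p18, followed the pattern of the members across libraries, at 38.6, 24.4, 39.8 and 13.9 CPM in +/+ and 4.56, 42.9, 39.8 and 30.9 CPM in Hnrnpr-/- axonal RNA. Cdkn1b, p27, and Rbl1, p107, which is itself an E2F target, differed by 1.13 and 1.91 in +/+ and were called. Rbl2, p130, the pocket protein of resting cells, was the gene of the list that fell most, from 76.6, 70.9, 69.7 and 60.9 CPM to 41.8, 24, 17.8 and 30.3 CPM in +/+ (-1.29 (SE 0.28, 0.409-fold, edgeR adjusted p = 0.00138)) and by 1.17 in Hnrnpr-/-. Cdkn1c, p57, Cdkn2d, p19, and Rb1 missed the threshold at log2 differences of -0.26, -0.28 and -0.05 in +/+, with standard errors of 0.20, 0.17 and 0.27.

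Whether loss of hnRNP R changed the members was asked in each compartment. None of the 38 passed the test in somatodendritic RNA, in axonal RNA or in the interaction of genotype and compartment, and none reached an unadjusted p of 0.05 in any of the 3 in edgeR, nor was any called by DESeq2 or limma voom. Over all genes, 1 gene was called in either compartment, Hnrnpr, or 0.00501%, and 0 in the interaction, while 2.75%, 0.857% and 1.33% of genes had an unadjusted p under 0.05. In somatodendritic RNA the members' median log2 difference, Hnrnpr-/- minus +/+, was 0.13, beside 0.002 for all genes. The members ranged from -0.14 (Cenpe) to 0.48 (Hmgb2). The Hnrnpr-/- somatodendritic libraries with the highest member sums, replicates 3 and 4, also had the highest somatodendritic sums of fibroblast or meningeal markers. These were 1159.7 and 1285 CPM against at most 436 CPM in +/+. Their sums of astrocyte or radial glia markers were the highest too, 1801 and 2197 CPM against at most 1544 CPM in +/+. Much of the latter excess was Gfap, at 7816.5 and 19033 counts there against at most 6110.5 in +/+. The part of these markers was not tested. The lowest unadjusted p was that of Cdc6, 0.0806, at 0.40 (95% interval -0.06 to 0.86). Hmgb2 had a mean of 15.2 ± 2.93 CPM in +/+ and 21.2 ± 7.64 CPM in Hnrnpr-/- (SD, n = 4), an interval of -0.10 to 1.07. For Mki67 the difference was 0.05 (-0.37 to 0.47), for Top2a 0.17 (-0.22 to 0.56), for Pcna -0.04 (-0.34 to 0.26) and for Ccnb1 0.07 (-0.36 to 0.50). In axonal RNA the median was 0.30, beside 0.02 for all genes, with a range of -0.26 (Ccne2) to 0.65 (Anln). Anln had means of 33 ± 21.9 CPM in +/+ and 51.6 ± 39 CPM in Hnrnpr-/-, an interval of -0.96 to 2.25. The lowest unadjusted p was 0.213, for Mcm6, at 0.50 (-0.34 to 1.34). The axonal intervals of Mki67 (-1.40 to 1.54), Top2a (-1.17 to 1.76), Pcna (-0.85 to 1.12) and Ccnb1 (-1.42 to 1.83) held changes of over 1 log2 unit either way, except that of Pcna on the lower side. In the interaction the members' median was 0.16, with a range of -0.39 to 0.50.

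The somatodendritic median was 0.013 without +/+ replicate 2 and 0.24 without +/+ replicate 3. The direction of the axonal median rested on single libraries: it was 0.66 without Hnrnpr-/- replicate 1, 0.03 without +/+ replicate 4 and -0.06 without Hnrnpr-/- replicate 3, with no member called in any of these fits. That of the interaction did too, at 0.50 without Hnrnpr-/- axonal replicate 1, -0.12 without +/+ axonal replicate 4 and -0.23 without Hnrnpr-/- axonal replicate 3, and it was -0.03 with the replicate block. Somatodendritic and axonal differences of the members share no library, but the 2 compartments of a replicate come from the same culture.

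**Figure D5:**
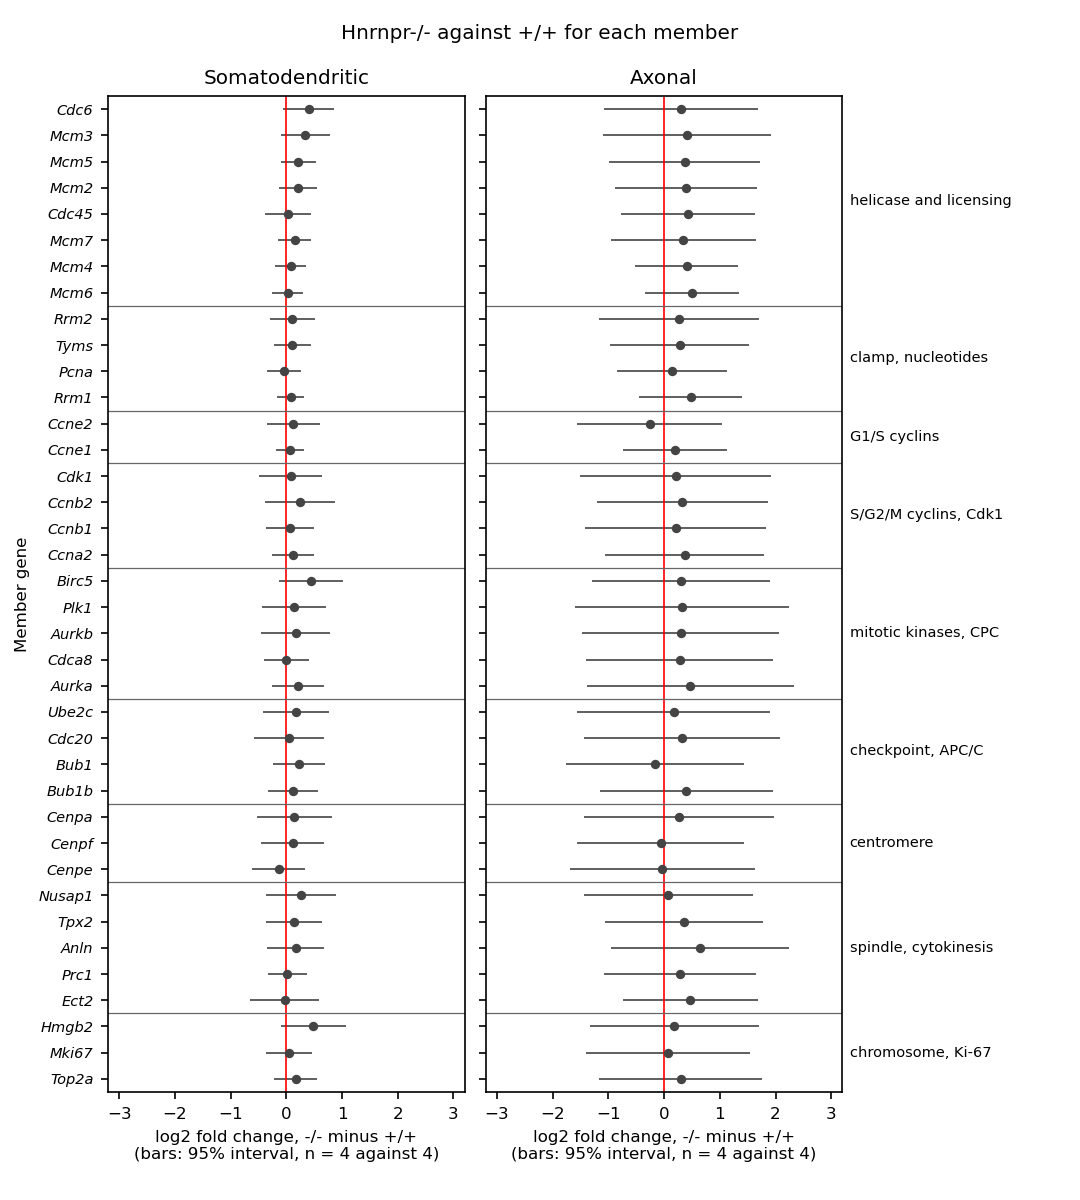
Log2 difference between Hnrnpr-/- and Hnrnpr+/+ (x axis, positive is higher in Hnrnpr-/-) for the 38 members (y axis) in somatodendritic (left) and axonal RNA (right), with 95% intervals from edgeR's fit of 4 against 4 libraries. Every interval includes 0, and the axonal ones are wider, from -1.76 at the lowest (Bub1) to 2.33 at the highest (Aurka).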

How the data were processed

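RNA of somatodendritic and axonal compartments was made into cDNA libraries with a SMART-Seq v4 and Nextera XT protocol, with more amplification cycles for axonal RNA. The authors trimmed reads, aligned them with STAR 2.7.2b to GRCm39 and counted them on RefSeq exons with featureCounts 1.6.4, set to the reverse strand and to split reads with several places or overlapping genes into fractions, and deposited these expected counts, which need not be whole, for 46320 genes. The kit does not mark strand, so reads of overlapping genes on opposite strands cannot be told apart. The split of shared reads lowers genes with near-identical copies.

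Counts were rounded and analysed in edgeR 4.0.16 (R 4.3.3) with TMM factors, filterByExpr by group (19964 genes kept) and the quasi-likelihood F-test, two-sided, with Benjamini-Hochberg adjustment over all genes and a threshold of 0.05. Compartments and the interaction were tested over all 16 libraries, genotypes over the 8 libraries of a compartment, since the common dispersion was 0.302 in axonal and 0.0535 in somatodendritic RNA. Standard errors are the log2 difference over the root of F. CPM are scaled by TMM. The labels name 4 numbered samples a group, and p-values measure the spread between these samples. Somatodendritic and axonal libraries of the same number deviated together (correlations 0.105 to 0.241 in +/+ and 0.175 to 0.508 in Hnrnpr-/-), so the numbers pair compartments of a culture.

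The 38 members, the 133 other cell cycle genes and the marker lists were chosen with earlier results of these data known. Values in every library are given for the members highest and lowest per kb in each role in +/+ somatodendritic RNA, the 3 largest and 3 smallest differences in +/+, and Mki67, Top2a, Pcna and Ccnb1. Of other cell cycle genes, the 2 largest rises and falls per genotype and all inhibitors are named; Ccnd2, E2f1, Mybl2, Foxm1 and the remaining members were named after their values were seen. No library was left out, and no pair of libraries was identical. The fits were tested on simulated data. Alternatives were another scaling, other filters, unrounded counts, DESeq2 1.42.0, limma 3.58.1 voom, the replicate block, other sample sets and each library left out. Figures were drawn with matplotlib.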

Additional observations from a re-analysis of the deposited data

Results flagged for a closer look

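Of 152 combinations of a member and a group, 3 held a library far from its group by Dixon's test at the 95% level, and chance alone flags about 1 in 20 groups. All 3 were lowest in the second Hnrnpr+/+ somatodendritic library. Mcm4 stood at 36.1 CPM there and at 46.0 to 47.1 CPM in the other 3 libraries of the group. Rrm1 was at 72.6 CPM against 91.6 to 93.7 CPM, and Prc1 at 28.4 CPM against 38.9 to 40.8 CPM. Without that library the median log2 difference of the members between compartments in +/+ was 2.21, with 37 members called higher.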

How the results depend on the processing

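In +/+ the members called higher in axons stayed at 37 under the 10 other settings and at 36 to 37 when any library was left out, and in Hnrnpr-/- at 36 to 37 and 36 to 38. None was called lower in any of these fits, and none was called between genotypes. The median log2 difference ran from 2.01 to 2.51 in +/+ and from 2.04 to 2.68 in Hnrnpr-/-. The replicate block, which pairs compartments, gave 37 and 36 members and medians of 2.08 and 2.05, and changed no call of a count by over 1.5 times. Between genotypes the numbers paired only in part. The same number was the best match for 1 of 4 somatodendritic replicates (correlations -0.0458 to 0.359) and 2 of 4 axonal ones (0.00946 to 0.677). In both compartments replicate 3 had the highest correlation. The replicate block turned the genotype difference of axonal Mki67 to -0.0918. Other cell cycle genes called lower in +/+ were 3 in place of 6 with library totals and no TMM factors, and 3 to 7 with a library left out (3 without axonal replicate 4). Library totals moved the median of all genes from 0.07 to 0.22 in +/+ and from -0.003 to 0.12 in Hnrnpr-/-. Single genotype differences turned sign, none of them called: limma voom gave 0.0553 for somatodendritic Pcna, and with a library left out the ranges were -0.10 to 0.16 for Mki67, -0.0814 to 0.207 for Ccnb1 and -0.129 to 0.0688 for Pcna in somatodendritic RNA, and -0.22 to 0.43, -0.17 to 0.59 and -0.11 to 0.39 in axonal RNA. With a T before the E2F-like core the members that hold it were 6 in place of 11, and 1 in place of 4 of the mitosis promoters, while the share of all promoters went from 10.9% to 2.6%. Depth limited no member, as the lowest count was 82. Genotype intervals were wider in axonal RNA, with a common dispersion of 0.302 against 0.0535 in somatodendritic RNA, and no member was called in either.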
